A study of Cavia porcellus with 34 samples.

Results

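Genes of the cilium and of its motile core, the axoneme, were examined in RNA-seq of the hypothalamic paraventricular nucleus (PVN) of young female guinea pigs. Members were chosen by symbol alone: every gene named DNAH, DNAI, RSPH, TEKT, SPAG, CFAP, IFT or BBS followed by a number, and FOXJ1. The rule found 69 of the 12592 genes listed in any of the 3 expression tables, and 67 of the 69 were listed in all 3 tables. A total of 49 members have symbols that the rule places in a motile class (22 CFAP, 10 DNAH, 6 RSPH, 5 SPAG, 3 TEKT, 2 DNAI and FOXJ1), called motile here. This class was set by symbol, and not every gene in it encodes a part of the axoneme. The other 20 (13 IFT and 7 BBS) serve transport in every kind of cilium and are called general.

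A motile cilium beats because axonemal dyneins slide its microtubule doublets past each other, while radial spokes and the central apparatus set the waveform. In the brain the main bearers of motile cilia are the ependymal cells that line the ventricles, including the third ventricle beside the PVN, and the epithelium of the choroid plexus. Most neurons and glia carry instead a single immotile primary cilium, which is built by the same intraflagellar transport and serves signalling. The transcription factor FOXJ1 switches on much of the motile programme.

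The study asked whether antenatal synthetic glucocorticoid (sGC) given to pregnant F0 guinea pigs altered stress responses, behaviour and brain gene expression in F1, F2 and F3 offspring. It followed maternal and paternal lines, and brain RNA was studied in paternal-line females, the group with the strongest behavioural effects. F0 dams received repeated courses of betamethasone (labelled Beta, here sGC) or saline vehicle (labelled Control, here Veh), and the F1, F2 and F3 females were all juveniles at postnatal day 40. Only the F0 animals were treated, so F1 animals were exposed in utero, whereas the F2 and F3 animals descend from exposed F1 fathers. Each treatment had 5 animals in the F1 table, 5 in the F2 table and 6 in the F3 table, and the methods describe each as coming from its own litter.

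Tissue was taken as micropunches of the anteromedial hypothalamus, which can include neighbouring regions. The values are normalized read counts that the authors had already adjusted for unwanted variation and rounded. They sum to 15573233 to 21935501 per F1 Veh animal and 16231218 to 20004503 per F1 sGC animal. The sums were 17372047 to 19435104 (Veh) and 15645962 to 18752079 (sGC) in F2, and 18692048 to 18977539 over all F3 animals. Each generation was normalized on its own, so levels are set side by side only within a generation, and gene lengths were not used, so levels are not compared between genes. In F3, 2 sGC animals (SGM21 and SGM22 of the second run) came from a second sequencing batch that held no Veh animal in this table. In bulk tissue, fewer cells of a type and less RNA per cell cannot be told apart.

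In F2, the motile genes had higher mean values in sGC than in Veh animals as a group, and the general genes differed much less. Of 48 motile members tested, 41 had a higher mean log2 value in sGC, with a median log2 fold change of 0.70. Of 20 general members, 15 were higher, with a median log2 fold change of 0.10. Over all 11965 genes tested the median log2 fold change was -0.08, and 24.5% of genes were higher. No single member passed the test. By limma with Benjamini-Hochberg adjustment over all genes, 0 of the 68 tested members and 0% of all genes had an adjusted p under 0.05. At an unadjusted p under 0.05, 26 motile members and 2 general members were higher in sGC, where 2.49% of all genes were. In the opposite direction it was 0 members, where 9.17% of all genes were lower. The Veh and sGC values overlapped for all 68 members, and 2.4% of all genes had no overlap.

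**Figure D1:**
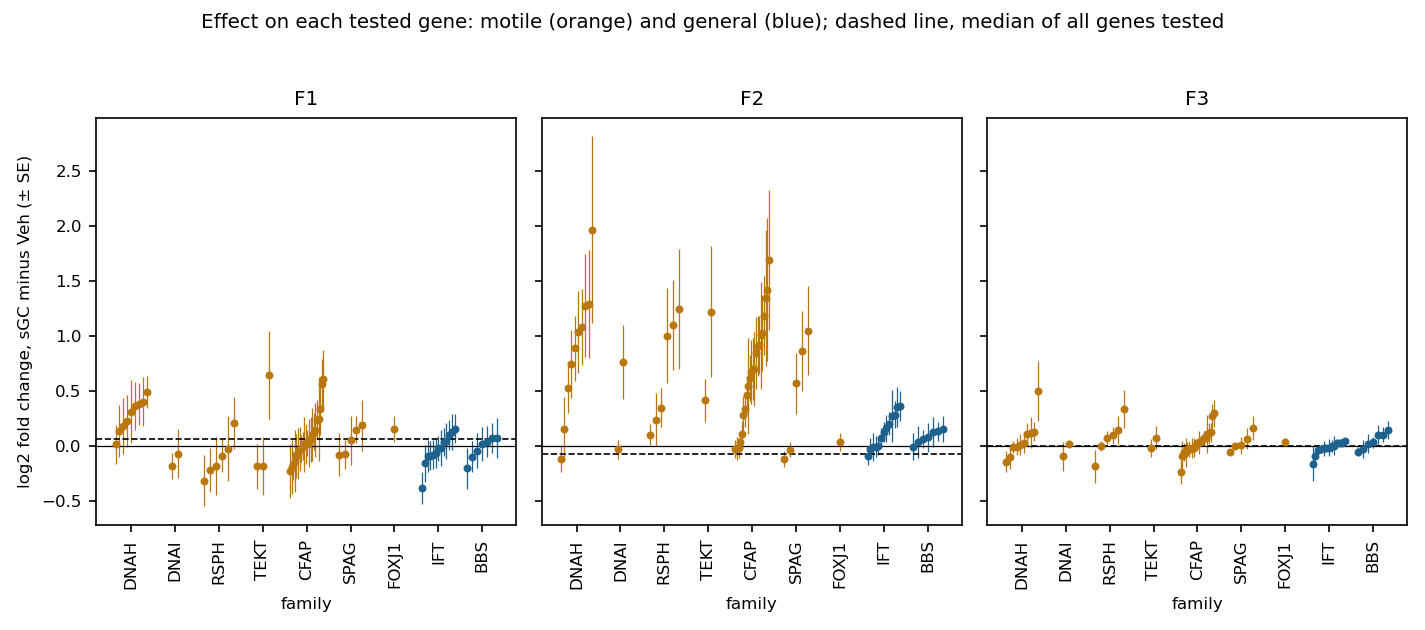
Log2 fold change (sGC against Veh) of every tested member, 1 point per gene, by gene family and generation, with the SE as a bar, motile families in orange, general families in blue and the median of all genes as a dashed line. In F2 the DNAH, CFAP, RSPH and TEKT medians lie between 0.67 and 0.96, the IFT and BBS medians at 0.13 and 0.08, and in F3 all points lie between -0.23 and 0.50.

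The dynein heavy chains, the motors of the axoneme, had the highest F2 family median, 0.96 on the log2 scale, with 9 of 10 genes higher in sGC. DNAH3, a heavy chain of the inner dynein arms, had normalized counts of 1279, 505, 219, 15 and 293 in the Veh animals SGM22, SGM23, SGM27, SGM28 and SGM29. In the sGC animals SGM21, SGM26, SGM30, SGM24 and SGM25 its counts were 811, 722, 1528, 546 and 1231. SGM28 was far below every other animal, SGM22 lay among the highest, and the groups overlapped through SGM22 alone. The log2 fold change of DNAH3 was 1.96 (SE 0.85, adjusted p = 0.400), a fold of 3.90 on the log2 scale with a pseudocount of 1. Its range over the 10 animals was 101.9-fold. With SGM28 left out the log2 fold change of DNAH3 was 1.00, and with SGM22 left out it was 2.58.

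DNAH5, a heavy chain of the outer dynein arms and the DNAH gene with the highest mean, had counts of 1808, 1037, 785, 292 and 898 in Veh. In sGC its counts were 1289, 1667, 2669, 1257 and 1951. Again SGM22 was the only Veh animal within the sGC range and SGM28 was the lowest animal. The log2 fold change of DNAH5 was 1.04 (SE 0.37, adjusted p = 0.313), and 0.66 without SGM28. DNAI1, an intermediate chain of the same outer arms, had counts of 3203, 2611, 2871, 2586 and 2871 in Veh and 2540, 2831, 3273, 2472 and 2757 in sGC. The groups lay on top of each other, and no Veh animal stood apart, with a log2 fold change of -0.03 (SE 0.09, adjusted p = 0.902) that turned positive when the animals were rescaled.

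Among the CFAP genes, a numbered family of cilia- and flagella-associated proteins, 19 of 22 were higher in F2 sGC animals, with a median log2 fold change of 0.68. CFAP44, part of a complex that tethers an inner-arm dynein, had counts of 1939, 776, 538, 77 and 536 in Veh and 1199, 1455, 3296, 970 and 2111 in sGC. Its log2 fold change was 1.69 (SE 0.64, adjusted p = 0.345), a fold of 3.22 on the same scale. All 5 sGC animals were above 4 of the 5 Veh animals. Without SGM28 the log2 fold change of CFAP44 was 1.01, and without SGM22 it was 2.17.

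CFAP77 and CFAP161, proteins of the inside of the doublet microtubules, had the same shape. CFAP161 had counts of 1173, 409, 302, 44 and 323 in Veh and 592, 688, 1172, 537 and 866 in sGC, where SGM22 by a count of 1 was the highest of all animals. CFAP77 had counts of 583, 245, 157, 19 and 191 in Veh and 427, 371, 651, 259 and 441 in sGC. The log2 fold changes were 1.34 for CFAP161 (SE 0.61, adjusted p = 0.424) and 1.42 for CFAP77 (SE 0.65, adjusted p = 0.424). Without SGM28 these values were 0.67 and 0.68, and without SGM22 they were 1.84 and 1.90. CFAP36, the CFAP gene with the highest mean, had a log2 fold change of -0.02 (SE 0.09, adjusted p = 0.937), positive after rescaling, with 2622 to 3183 counts in Veh and 2444 to 3206 in sGC.

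**Figure D2:**
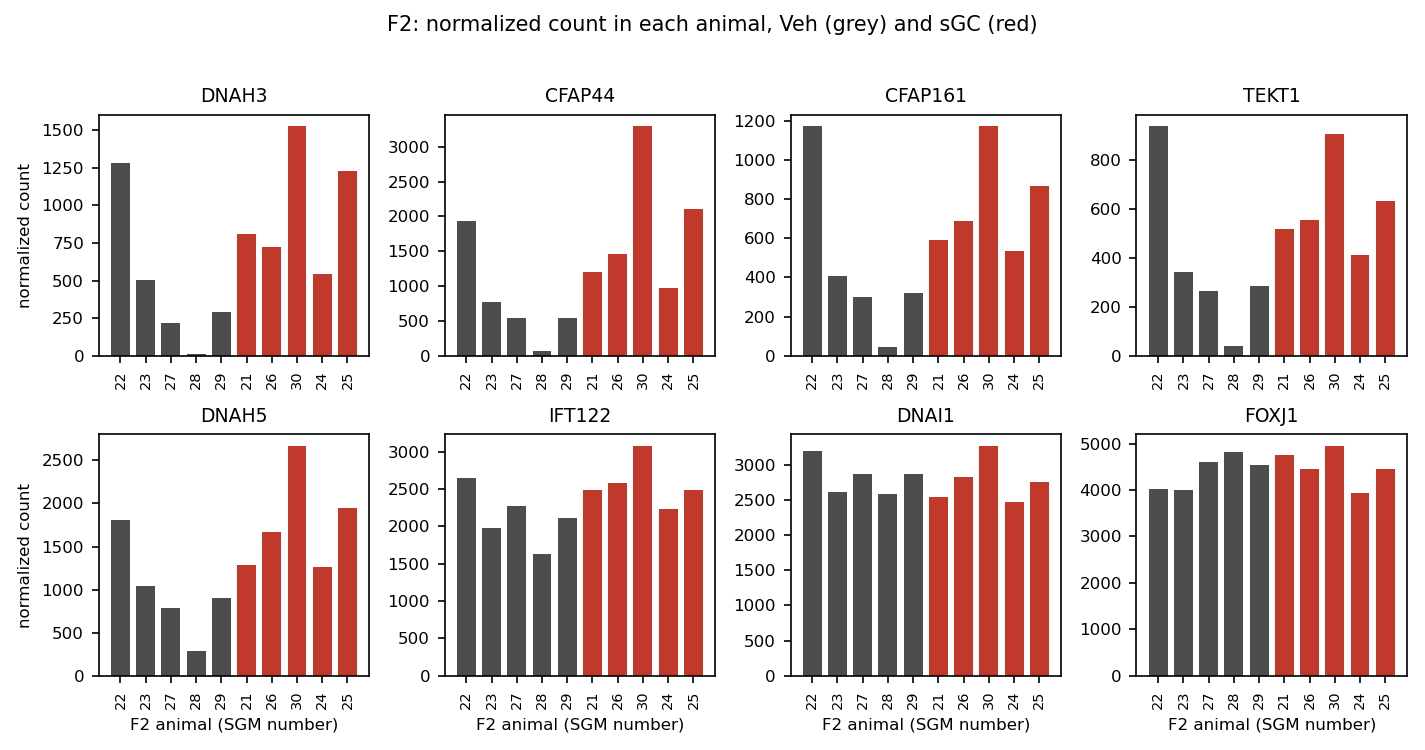
Normalized counts of DNAH3, CFAP44, CFAP161, TEKT1, DNAH5, IFT122, DNAI1 and FOXJ1 in each of the 10 F2 animals, with Veh and sGC animals in separate colours and bars starting at 0. For the first 5 genes the Veh animal SGM28 is the lowest bar and the Veh animal SGM22 is as tall as the sGC bars, whereas DNAI1 and FOXJ1 are level across all animals.

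The radial spoke genes, which link the central pair to the dynein arms, were higher in F2 sGC animals in 6 of 6 cases, with a median log2 fold change of 0.67. RSPH9, the RSPH gene with the highest mean, had counts of 1938, 1230, 1348, 865 and 1279 in Veh and 1409, 1663, 2212, 1466 and 1554 in sGC. Its log2 fold change was 0.35 (SE 0.18, adjusted p = 0.478), and 0.20 without SGM28. TEKT1, a tektin of the doublet wall, had counts of 941, 342, 266, 40 and 285 in Veh and 520, 558, 907, 411 and 636 in sGC, for a log2 fold change of 1.22 (SE 0.59, adjusted p = 0.449) that was 0.57 without SGM28. Both genes repeated the order seen for the dyneins, with SGM22 the highest Veh animal, SGM28 the lowest and the other 3 in between. The SPAG (sperm-associated antigen) symbols cover proteins of unlike function, and 3 of 5 were higher, with a median of 0.57. SPAG9, a scaffold of JNK signalling that has no place in the axoneme, had a log2 fold change of -0.03 (SE 0.07, adjusted p = 0.858), positive after rescaling. Without the SPAG genes the motile median was again 0.70.

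FOXJ1 ordered the animals differently from the axonemal genes. Its F2 counts were 4013, 4011, 4595, 4830 and 4544 in Veh and 4747, 4458, 4954, 3948 and 4448 in sGC. SGM28, the lowest animal for most motile genes, was the highest Veh animal for FOXJ1, and SGM22 was among the lowest. The log2 fold change of FOXJ1 was 0.04 (SE 0.08, adjusted p = 0.870), with a 95% confidence interval of -0.14 to 0.21.

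The general genes showed a smaller difference in F2. IFT81, which carries tubulin as a subunit of the IFT-B train, had counts of 777, 567, 680, 449 and 582 in Veh and 776, 850, 884, 642 and 732 in sGC. Its log2 fold change was 0.36 (SE 0.14, adjusted p = 0.343), and the groups overlapped. IFT122, a core subunit of the IFT-A train that returns cargo to the cell body, had counts of 2650, 1979, 2267, 1632 and 2107 in Veh and 2484, 2580, 3079, 2239 and 2485 in sGC. SGM22 was again the highest Veh animal and SGM28 the lowest, within a far narrower range than for the dyneins, and the log2 fold change of IFT122 was 0.28 (SE 0.12, adjusted p = 0.394). IFT88, another IFT-B subunit, had a log2 fold change of 0.35 (SE 0.18, adjusted p = 0.470), which was 0.225 without SGM23. IFT43, an IFT-A subunit, had one of 0.27 (SE 0.24, adjusted p = 0.662), which was 0.07 without SGM28. BBS4, a subunit of the BBSome coat that sorts membrane proteins of the cilium, had counts of 1441 to 1809 in Veh and 1508 to 1821 in sGC, with a log2 fold change of 0.06 (SE 0.08, adjusted p = 0.780).

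In F2, the same few animals were the highest or the lowest for most of the motile genes. Within Veh, SGM22 was the highest animal for 42 of 48 motile genes (87.5%, against 39.7% of all genes) and SGM28 the lowest for 39 (81.2%, against 34.9%). Within sGC, SGM30 was the highest for 41 (85.4%, against 39.8%). Over all 10 animals, SGM28 was the lowest for 36 motile genes (75%), against 15.7% of all genes, and SGM30 the highest for 38 (79.2%), against 15.5% of all genes. Because the same animals lead for gene after gene, the 48 genes are not independent readings of the treatment.

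**Figure D3:**
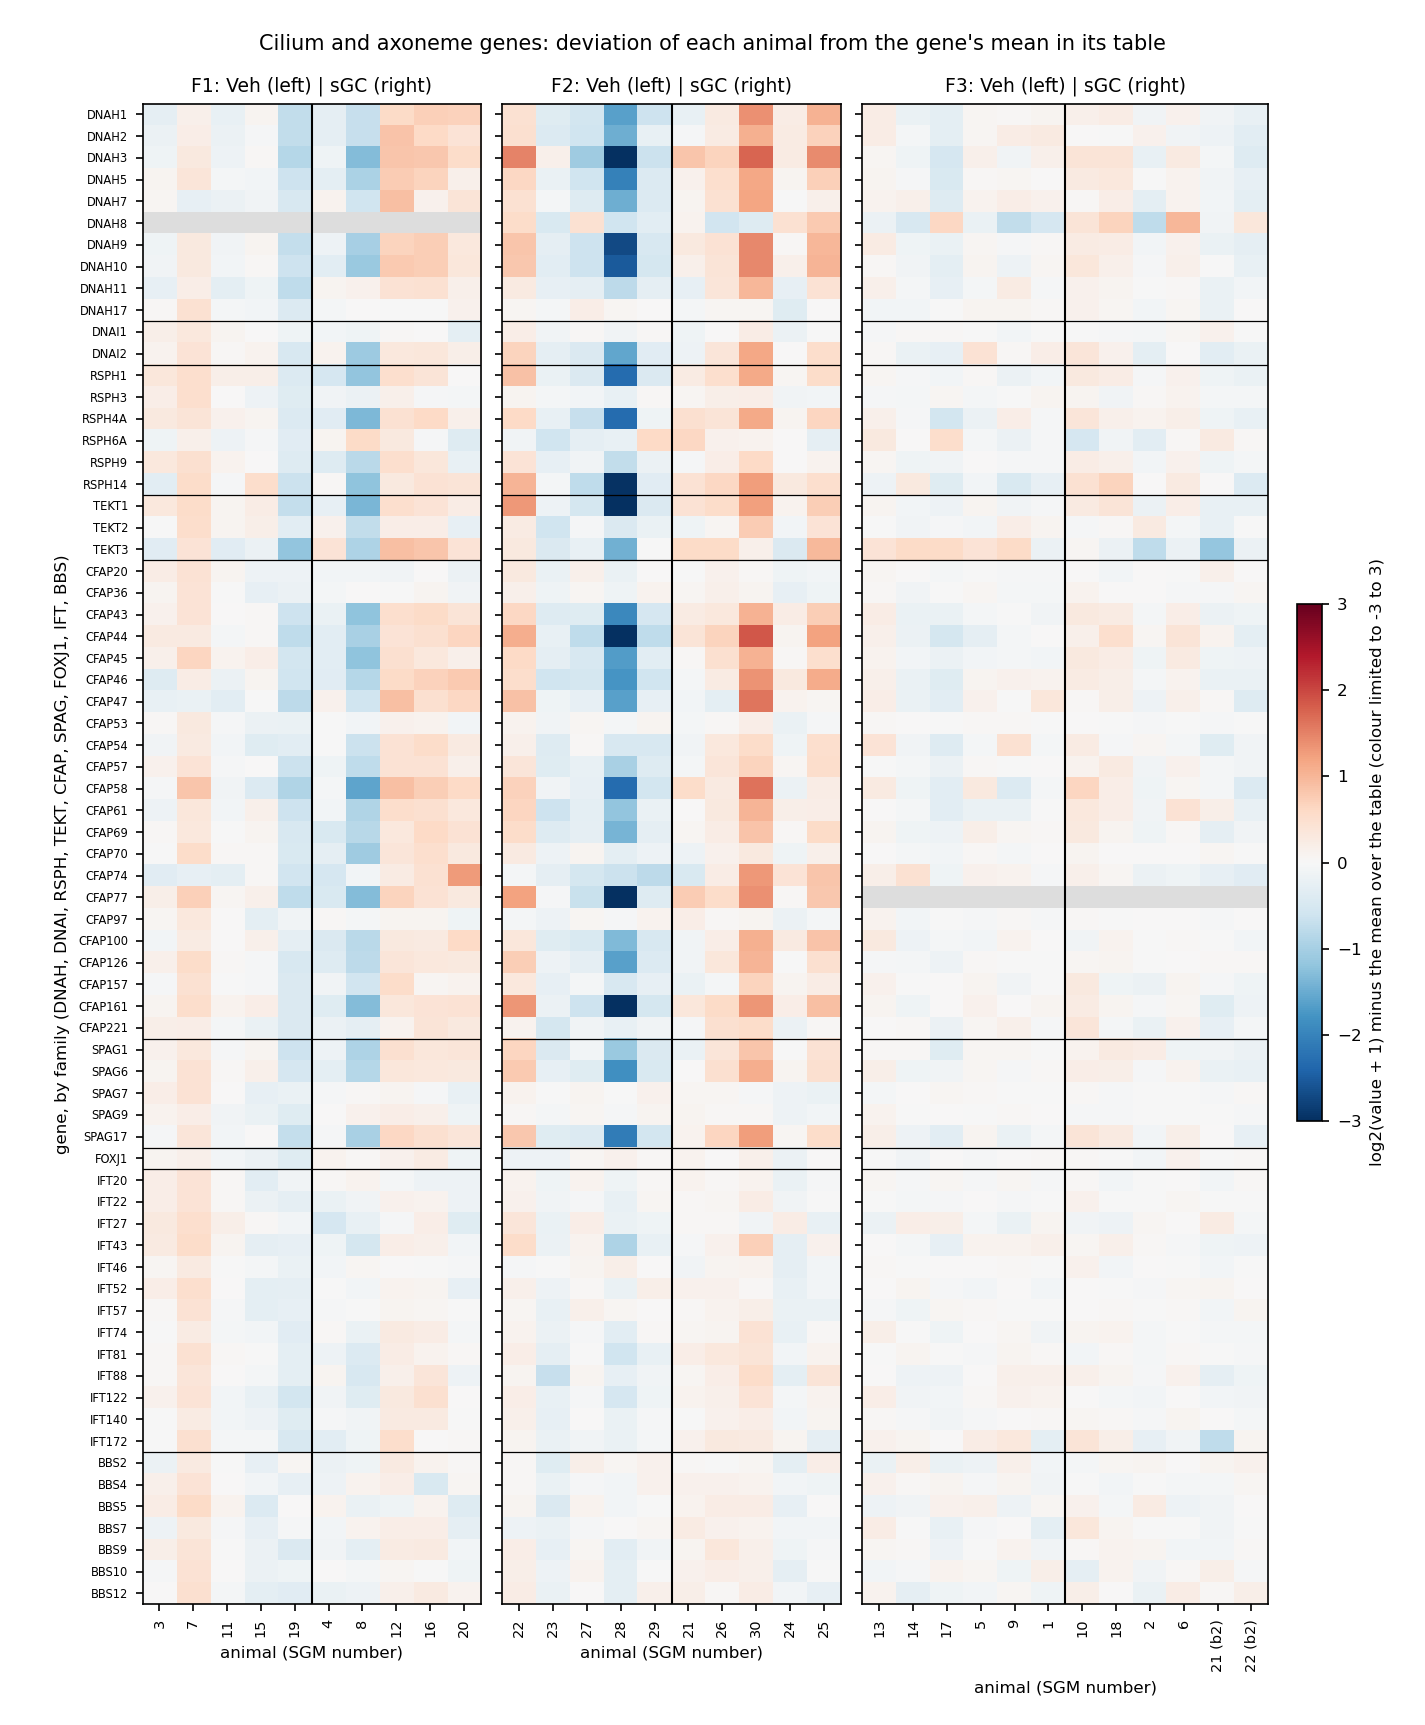
Log2 value (pseudocount 1) of each member (rows, by family) in each animal (columns, Veh left and sGC right in each generation), minus the gene's mean in that table. Red is above and blue below the mean, and grey rows are genes not listed in a table. The F2 column of SGM28 is low and those of SGM22 and SGM30 are high over most of the motile rows, the F1 columns of SGM8 and SGM19 are low over most of them, and the IFT and BBS rows and the F3 columns are mostly pale.

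A score of each animal, the mean log2 value of the motile genes minus that of all genes, gave -0.02, -0.55, -0.76, -1.68 and -0.75 in F2 Veh (SGM22, SGM23, SGM27, SGM28, SGM29). In F2 sGC it was -0.31, -0.14, 0.37, -0.17 and 0.14 (SGM21, SGM26, SGM30, SGM24, SGM25). The sGC animals lay above 4 of the Veh animals, and SGM22 lay inside their range. The same score over the general genes was 0.08, -0.05, 0.05, -0.06 and -0.01 in Veh and 0.16, 0.20, 0.21, 0.14 and 0.15 in sGC. Those groups did not overlap, with the highest Veh animal at 0.08 and the lowest sGC animal at 0.14. The score is relative to all genes, whose median log2 fold change in F2 was -0.08. The summed counts of the general genes did overlap, at 15504 to 18984 in Veh and 16102 to 20349 in sGC. Taken singly, 0 of the 20 general genes were without overlap, where 2.4% of all genes were.

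Leaving out single animals moved the F2 result in both directions. Without SGM28 the motile median minus the median of all genes was 0.54, against 0.77 with all animals, and 19 motile genes had an unadjusted p under 0.05, where 12% of all genes did. Without SGM30 it was 0.63 with 10 such genes, where 12% of all genes were. Without SGM22 it was 1.00 with 34 such genes, where 13.6% of all genes were. In that fit every sGC animal was above every remaining Veh animal for 27 of the 48 motile genes (56.2%, against 2.06% of all genes) and for 0 general genes, and 4 members passed the adjusted threshold, as did 0.719% of all genes. Those 4 were CFAP100, CFAP43, CFAP46 and DNAH2, with log2 fold changes of 1.11, 1.31, 1.46 and 1.12 and an adjusted p of 0.0488 each. Leaving out any other F2 animal gave at most 1 motile gene without overlap. SGM22 was left out only as 1 of the 10 animals in turn, and nothing in the labels sets it apart.

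**Figure D4:**
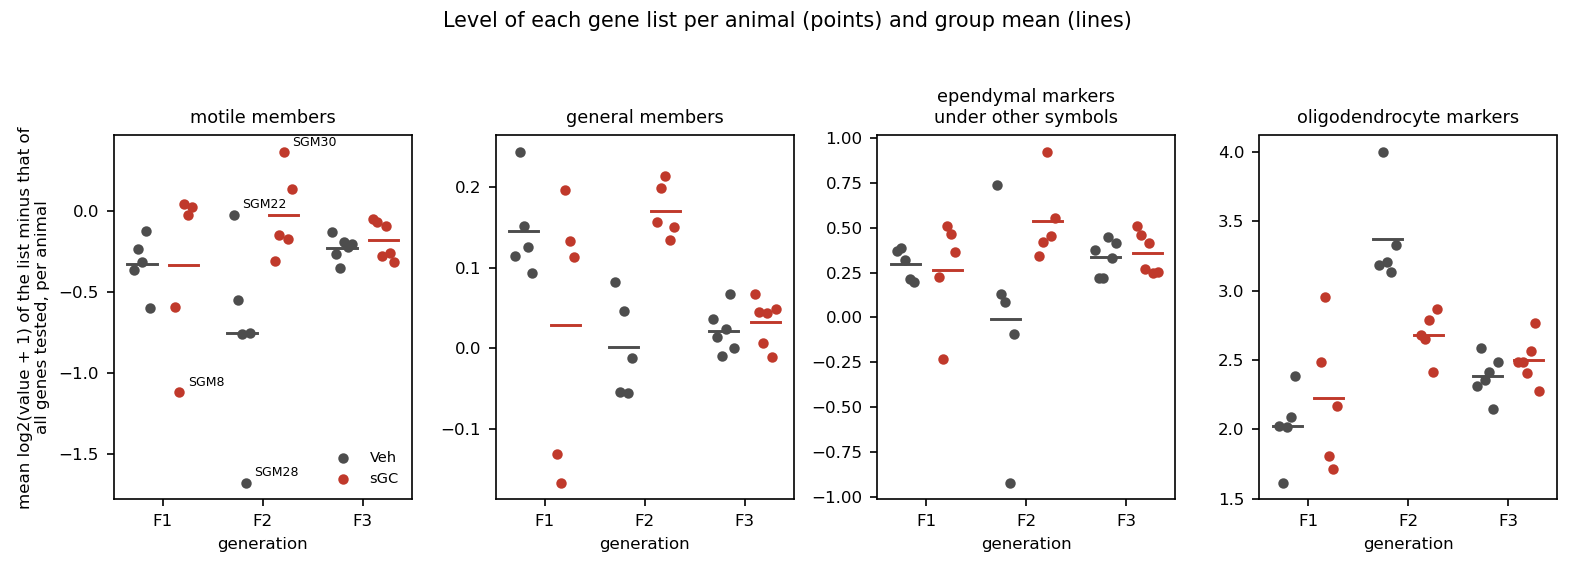
Score of each animal (mean log2 value of a list minus that of all genes) for the motile members, the general members, ependymal markers under other symbols and oligodendrocyte markers, by generation and group, with the group mean as a line and a separate y axis in each panel. The F2 motile and ependymal scores of the Veh animals reach from SGM28 at the bottom (-1.68 and -0.92) to SGM22 near the top (-0.02 and 0.74), and the F2 sGC animals span a narrower range.

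Of 5 ependymal cell markers under other symbols, 4 (TMEM212, MLF1, TPPP3 and CCDC153) had SGM28 as the lowest and SGM30 as the highest F2 animal. CCDC153 is also a subunit of the nexin-dynein regulatory complex. The fifth, C9orf24, went otherwise, with 7746 counts in SGM28, 6878 in SGM30 and 6485 to 8185 over all 10 animals. The score of the list was 0.74, 0.13, 0.09, -0.92 and -0.09 in F2 Veh and 0.34, 0.42, 0.92, 0.45 and 0.55 in F2 sGC. Of the 5 tested, 4 were higher in sGC, with a median log2 fold change of 0.35 and 0 at an unadjusted p under 0.05. The summed counts of the list were 14393 to 20284 in Veh and 16934 to 21595 in sGC, and most of each sum came from TPPP3 and C9orf24. TMEM212, a membrane protein of multiciliated cells, had counts of 109, 26, 26, 1 and 17 in Veh and 48, 47, 121, 34 and 51 in sGC, for a log2 fold change of 1.50 (SE 0.78, adjusted p = 0.480). MLF1 had counts of 609, 410, 387, 225 and 378 in Veh and 420, 564, 740, 413 and 514 in sGC, for a log2 fold change of 0.43.

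Other cell markers also differed between the F2 groups, in a table where 24.5% of all genes were higher in sGC and the rest lower. All 9 oligodendrocyte markers were lower in sGC, 8 of them without overlap, where 2.4% of all genes had none, with a median log2 fold change of -0.78 and summed counts of 127839 to 230215 in Veh and 67547 to 108954 in sGC. All 7 markers of PVN neurons were higher, with a median of 0.32, whereas all 4 general neuron markers were lower, with a median of -0.20. All 6 endothelial markers (median -0.36) and all 5 microglia markers (median -0.20) were lower as well. The choroid plexus markers were higher in 3 of 6 cases, with a median of -0.03 and summed counts of 1932 to 2567 in Veh and 1636 to 2201 in sGC. Most of that sum came from ENPP2, with 1257 to 1669 counts in Veh and 989 to 1332 in sGC. The tanycyte markers were higher in 2 of 4 cases, with a median of -0.03. The part of these marker differences in the values of the motile genes was not tested.

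Genes that work with the members but carry other symbols were counted from lists by role. All 9 genes of dynein assembly and docking were higher in F2 sGC animals, with a median log2 fold change of 0.54 and 4 at an unadjusted p under 0.05, where 2.49% of all genes were higher at that p. ARMC4 and TTC25, which dock the outer arms, had log2 fold changes of 1.79 (SE 0.87, adjusted p = 0.455) and 1.61 (SE 0.64, adjusted p = 0.372). CCDC151, another docking protein, was the only gene of that list whose groups did not overlap, as for 2.4% of all genes, and was singled out after its values were seen. It had 425 ± 101 counts in Veh and 676 ± 155 in sGC (SD, n = 5 each), for a log2 fold change of 0.67 (SE 0.17, adjusted p = 0.148 by limma over all genes). All 8 tested genes of a list of the nexin-dynein regulatory complex, which links neighbouring doublets, and the molecular ruler (CCDC39 and CCDC40), which sets the axonemal repeat, were higher, with a median of 0.64 and 4 at an unadjusted p under 0.05, led by TCTE1 at 1.76 (SE 0.92, adjusted p = 0.484) and DRC7 at 1.67 (SE 0.85, adjusted p = 0.473). The score over the dynein assembly and docking genes ran from -1.77 to -0.02 in Veh and from -0.29 to 0.28 in sGC. Over the nexin-dynein and ruler list it ran from -2.50 to -0.19 in Veh and from -0.46 to 0.09 in sGC. As for the motile genes, the Veh animals spread more widely than the sGC animals and overlapped with them.

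Of 15 other axonemal genes, 14 were higher, with a median of 0.41 and 9 at an unadjusted p under 0.05, and CCDC113 (1.58) and AK7 (1.01) differed most. The score over this list ran from -1.70 to -0.31 in Veh and from -0.57 to 0.03 in sGC. All 6 regulators of multiciliated cells were higher, with a median of 0.41 and 3 at an unadjusted p under 0.05. They were led by the transcription factors MYB (1.11, SE 0.50, adjusted p = 0.417) and TP73 (1.01, SE 0.45, adjusted p = 0.419). For both, SGM28 was the lowest F2 animal and SGM22 the highest Veh animal. MYB had 23 counts in SGM28, where the other Veh animals had 92 to 285. TP73 had 23 counts in SGM28, where the other Veh animals had 80 to 216. The part of SGM28 in the log2 fold changes of MYB and TP73 was not tested. Lists that every cilium needs had medians nearer to 0. The transition zone, the gate at the ciliary base, was higher in 14 of 15 cases, 4 of them at an unadjusted p under 0.05, with a median of 0.17. IFT subunits under other symbols were higher in 5 of 6 cases, 1 of them at an unadjusted p under 0.05, with a median of 0.13, and the motors of intraflagellar transport in 3 of 5 with a median of 0.01. BBSome partners were higher in 2 of 4 cases with a median of -0.03. Signalling genes of the primary cilium, such as hedgehog components and ciliary receptors, were higher in 5 of 13 cases with a median of -0.01. None of the genes of these lists passed the adjusted threshold in F2.

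In F1, the motile genes had a median log2 fold change close to that of all genes, and 2 of the 5 sGC animals, SGM8 and SGM4, had lower motile values than the other 3. Of 48 motile members, 29 were higher in sGC, with a median log2 fold change of 0.03, which was -0.06 to -0.03 when the animals were rescaled, and of 20 general members 9 were higher, with a median of -0.02. Over all genes tested the median was 0.07 and 63.8% were higher. With limma, 0 of 68 members had an adjusted p under 0.05, where 0.657% of all 11874 genes did. Without overlap were 0 members, where 2.04% of all genes were. At an unadjusted p under 0.05, 3 members were higher, all motile, where 12.1% of all genes were, and 1 was lower, a general gene, where 1.46% of all genes were.

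The dynein heavy chains were higher in F1 sGC animals in 9 of 9 cases, with a median log2 fold change of 0.31, whereas the radial spoke genes were higher in 1 of 6, with a median of -0.14. DNAH11, an outer-arm heavy chain, had counts of 813, 1113, 790, 884 and 568 in the Veh animals SGM3, SGM7, SGM11, SGM15 and SGM19. In the sGC animals SGM4, SGM8, SGM12, SGM16 and SGM20 its counts were 1019, 1048, 1296, 1317 and 1074. Only SGM7 of the Veh animals reached the sGC range. The log2 fold change of DNAH11 was 0.49 (SE 0.15, adjusted p = 0.123), and it was 0.60 with an adjusted p of 0.0300 when SGM7 was left out, a fit that called 3.99% of all genes. Rescaling the animals gave 0.42 to 0.43 with an adjusted p of 0.0315 to 0.0330, in fits that called 16.4% to 17.6% of all genes.

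CFAP74, of the central apparatus, had counts of 200, 216, 207, 263 and 172 in F1 Veh and 179, 243, 302, 353 and 624 in F1 sGC, with SGM20 far above the rest. Its log2 fold change was 0.57 (SE 0.23, adjusted p = 0.265), and 0.32 without SGM20. CFAP47, also of the central apparatus, had counts of 34, 35, 32, 40 and 23 in Veh and 44, 26, 76, 56 and 62 in sGC, for 0.61 (SE 0.27, adjusted p = 0.316). TEKT3, a tektin with low values, had counts of 8, 14, 8, 9 and 4 in Veh and 14, 5, 20, 19 and 14 in sGC, for 0.64 (SE 0.40, adjusted p = 0.520). Its mean was 8.6 in Veh and 14.4 in sGC, so it passed the filter on a mean of 10 only through the sGC animals. SGM8 was the lowest sGC animal for CFAP47 and TEKT3 but not for CFAP74.

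Among the general genes of F1, IFT27, a small GTPase of the IFT-B train, had counts of 656, 754, 604, 546 and 506 in Veh and 372, 458, 518, 607 and 412 in sGC. The 3 lowest animals were sGC, and the log2 fold change was -0.38 (SE 0.15, adjusted p = 0.246). BBS5 had a log2 fold change of -0.20 (SE 0.19, adjusted p = 0.707), the IFT-A subunits IFT140 and IFT43 had 0.16 (SE 0.13, adjusted p = 0.669) and -0.16 (SE 0.17, adjusted p = 0.761). Each of the 3 was within the spread between animals. FOXJ1 had counts of 4762, 4979, 4188, 3970 and 3447 in Veh and 4817, 4598, 4850, 5314 and 4060 in sGC, for a log2 fold change of 0.15 (SE 0.12, adjusted p = 0.647).

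SGM8 was the lowest of the 10 F1 animals for 30 of 48 motile genes (62.5%), against 4.15% of all genes. Its motile score was -1.12, against -0.59, 0.05, -0.02 and 0.02 in the other sGC animals and -0.60 to -0.12 in Veh. DNAH3 had 316 counts in SGM8, against 711, 1396, 1366 and 1137 in the other sGC animals. TEKT1 had 210, against 464, 778, 733 and 643. The ependymal marker score of SGM8 was -0.23, where the other sGC animals had 0.20 to 0.51, and the summed oligodendrocyte marker count of 100311 was the highest of all F1 animals, where the other 9 had 36028 to 67064. Without SGM8 the F1 motile median minus that of all genes was 0.14, against -0.04 with it, and 15 motile genes were at an unadjusted p under 0.05, where 11.1% of all genes were. Without SGM4 it was 0.03. Markers differed in F1 also between the groups, with 7 of 7 PVN markers lower (median -0.94) and 6 of 6 endothelial markers higher (median 0.36), in a table where 63.8% of all genes were higher. Oligodendrocyte markers were higher in 8 of 8 cases (median 0.31), astrocyte markers in 7 of 8 and microglia markers in 5 of 6 (median 0.35). The summed oligodendrocyte count was highest in SGM8 and next highest in SGM4 (67064), the animals with the lowest motile scores among the sGC animals. In F2 it went the other way for SGM28, which had the lowest motile score and the lowest such count of the Veh animals (127839). Between the F2 groups it did not, as the sGC animals had the lower such counts (67547 to 108954, against 127839 to 230215 in Veh). Their median motile score was the higher, at -0.14 against -0.75 in Veh. Of 8 choroid plexus markers in F1, 5 were higher and 3 lower, with a median of 0.22. TTR, the marker with the largest difference, passed the filter only through sGC animals and had counts of 0, 21, 3, 5 and 4 in Veh and 332, 58, 0, 47 and 492 in sGC. The part of these markers in the values of the motile genes was not tested.

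**Figure D5:**
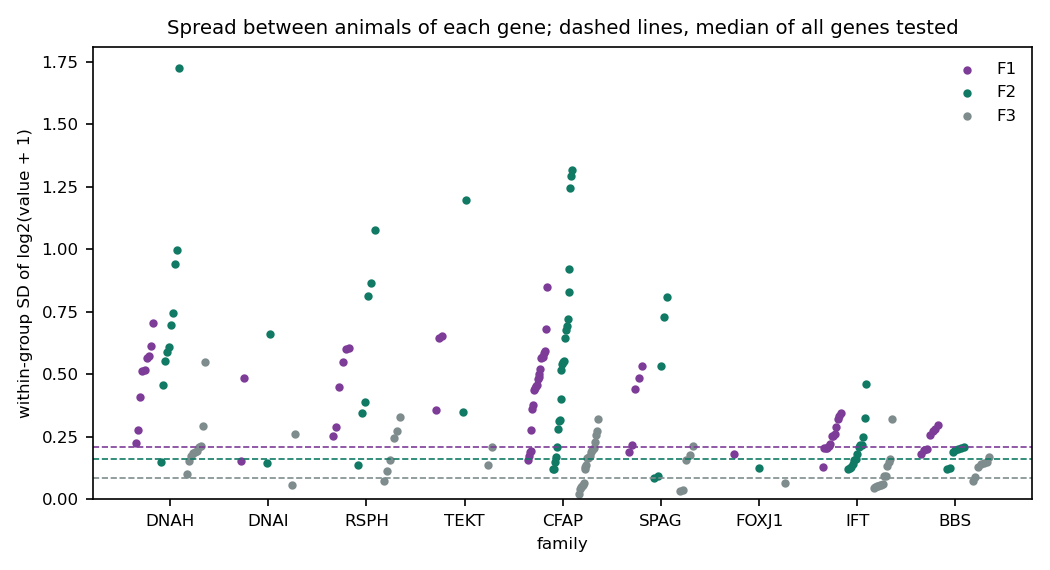
Within-group SD of the log2 value of each tested member, 1 point per gene, by family and generation, with generations in separate colours and the median of all genes of each generation as a dashed line. Most motile genes lie above the line of their generation and FOXJ1 below it, with motile medians of 0.48, 0.55 and 0.17 in F1, F2 and F3, against 0.21, 0.16 and 0.08 for all genes.

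In F3, the log2 fold changes of the motile genes centred near 0. Of 47 motile members, 29 were higher in sGC, with a median log2 fold change of 0.02, and of 20 general members 11 were, with a median of 0.00. Over all genes the median was 0.00. With limma, 0 of 67 members had an adjusted p under 0.05, where 0.0506% of all 11866 genes did, and without overlap were 0 members, where 1.21% of all genes were. At an unadjusted p under 0.05, 3 members were higher, where 6.19% of all genes were, and 1 was lower, where 6.92% of all genes were.

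CFAP44 had 940 to 1504 counts in F3 Veh (median 1257.5) and 1512, 1916, 1410, 1771, 1460 and 1114 in the sGC animals SGM10, SGM18, SGM2, SGM6 and SGM21 and SGM22 of the second batch. SGM22 was the lowest sGC animal, and 3 sGC animals were above every Veh animal. The log2 fold change of CFAP44 was 0.29 (SE 0.13, adjusted p = 0.339). CFAP61, of the base of a radial spoke, had 87 to 109 counts in Veh (median 99) and 136, 125, 102, 148, 124 and 93 in sGC, for 0.27 (SE 0.11, adjusted p = 0.298). Here 4 of 6 sGC animals were above every Veh animal. DNAH8 had 36 to 93 counts in Veh (median 47.5) and 35 to 121 in sGC, for 0.50 (SE 0.27, adjusted p = 0.466), and RSPH14 had 25 to 43 (median 30) and 26 to 56, for 0.33 (SE 0.18, adjusted p = 0.446), which was 0.52 in the first batch alone.

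The general genes of F3 had small differences, within the spread between animals. IFT172, a large IFT-B subunit, had 867 to 1337 counts in Veh (median 1150.5) and 626 to 1395 in sGC, for a log2 fold change of -0.16 (SE 0.16, adjusted p = 0.713). The IFT172 value was -0.02 without SGM21 of the second batch and -0.03 in the first batch alone. BBS12, related to chaperonins that assemble the BBSome, had 103 to 133 counts in Veh (median 115) and 108 to 145 in sGC, for 0.14 (SE 0.08, adjusted p = 0.502). The BBSome subunits BBS2 and BBS7 each had 0.10 (adjusted p = 0.576 and 0.676). FOXJ1 had 4236 to 4704 counts in Veh (median 4586.5) and 4310 to 5037 in sGC, for 0.03 (SE 0.03, adjusted p = 0.720). With the first sequencing batch alone, 11 motile genes were at an unadjusted p under 0.05, where 9.7% of all genes were, and the motile median minus that of all genes was 0.06, against 0.03 with both batches.

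The difference of the sGC effect between generations was fitted jointly over 11429 genes tested in all 3 tables, 46 of them motile and 20 general. The joint fit gave each gene a residual variance shared by the 3 generations. The motile genes spread far more in F2 than in F3, with a median within-group SD of 0.55 against 0.17. For motile genes, the SEs of differences that involve F2 can therefore be too small and their p-values too low. The F2 effect minus the F3 effect was positive for 40 of 46 motile genes, with a median of 0.67 on the log2 scale, and 22 had an unadjusted p under 0.05, where 9.2% of all genes did. For CFAP44 that difference was 1.39 (SE 0.61, adjusted p = 0.522) and for DNAH3 1.84 (SE 0.80, adjusted p = 0.522), and for FOXJ1 it was 0.00. The F1 effect minus the F2 effect was negative for 40 of 46 motile genes, with a median of -0.56, and 17 had an unadjusted p under 0.05, where 24.5% of all genes did. The F1 effect minus the F3 effect had a median of 0.01 and 2 such genes, where 18.1% of all genes were. By limma, 0 members had an adjusted p under 0.05 in any of the 3 differences, where 7.64% (F1 minus F2), 3.13% (F1 minus F3) and 0.00875% (F2 minus F3) of all genes did. In this main fit, a difference between F2 and the other generations was therefore not shown for any single motile gene. Some alternative fits did call members, as given under the dependence on processing. The most were 16 for F1 minus F2, where 1034 of all genes were called, and 1 for F2 minus F3, where 60 were. The differences involving F2 share its animals, SGM22 and SGM28 among them.

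The motile genes had a larger spread between animals of the same group than other genes did. Their median within-group SD on the log2 scale was 0.48, 0.55 and 0.17 in F1, F2 and F3. For the general genes it was 0.25, 0.19 and 0.09, and for all genes 0.21, 0.16 and 0.08. By group, the motile median SD in F1 was 0.34 in Veh and 0.59 in sGC, which holds SGM8, against 0.23 and 0.17 for all genes. In F2 it was 0.68 in Veh, which holds SGM28, and 0.41 in sGC, against 0.15 and 0.16 for all genes. In F3 it was 0.13 and 0.19, against 0.08 in each group for all genes. In F2 the highest animal was over 5-fold above the lowest for 24 of 48 motile genes (50%), where 2.79% of all genes were, and for 0 general genes. In F1 this held for 1 of 48 motile genes, where it held for 2.37% of all genes, and in F3 for 0 of 47, where it held for 0.624%.

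The spread was uneven within the motile class. In F2, 11 motile genes varied by less than 2-fold over the 10 animals, where 82% of all genes did: CFAP20, CFAP36, CFAP53, CFAP70, CFAP97, DNAH17, DNAI1, FOXJ1, RSPH3, SPAG7 and SPAG9. The F1 set, where 77.8% of all genes varied by less than 2-fold, held 10 of these 11, with CFAP221 in place of CFAP70. These genes were listed after their values were seen. FOXJ1 had a within-group SD of 0.18, 0.12 and 0.06 in F1, F2 and F3, below the motile median in each.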

How the data were processed

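Tissue was collected from female guinea pigs of the paternal line at postnatal day 40, and each library was 1 animal. The authors aligned unstranded reads with TopHat2 to cavPor3 in Galaxy, counted them per gene with GenomicAlignments, adjusted the F3 sequencing batches with ComBat and removed unwanted variation with RUVSeq residuals. The values they deposited are these normalized counts rounded to whole numbers, a score and no longer raw counts, so no count model was applied. Reads of overlapping genes cannot be separated without strand, and overlap was not checked. Columns of the authors' own comparison (dispersion, log fold change, log CPM, likelihood ratio, p-values) were not used, and 2 resequenced Veh libraries of F3 were not analysed here.

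In R 4.3.3, limma 3.58.1 was run on each generation alone, as a linear model with moderated variances and a mean-variance trend, on log2(value + 1). Genes whose mean was under 10 were left out, p-values were adjusted over all remaining genes by the method of Benjamini and Hochberg, and the threshold was 0.05. Fold changes on this scale understate the change of low genes. TEKT3 passed this filter only in F1, where it had a mean of 11.5, and CFAP77 (F3) and DNAH8 (F1) were not listed in a table. Generation differences came from 1 joint limma fit, in which the generations shared a residual variance per gene. The genes named were FOXJ1, in each generation the 4 motile and 4 general members with the largest absolute log2 fold change, any member called or without overlap, the member of each family with the highest mean, and the 2 leading genes of an accompanying list. Members and lists were chosen with earlier results of these data known, and a list's count is no independent evidence. Alternatives were 3 rescalings, another pseudocount (10), no filter or a mean of at least 50, leaving out each animal, the directions removed by the normalization as covariates, F3 batch choices and motile genes without SPAG. The fits were tested on simulated data. With 5 or 6 animals a group, the number of animals limits the precision.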

Additional observations from a re-analysis of the deposited data

Results flagged for a closer look

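In F1 sGC, TEKT3 was flagged because SGM8 lay far from the other animals of its group. Its log2 value was 2.585, where the other 4 had 3.907 to 4.392. TEKT3 has low counts, 5 in SGM8 and 14 to 20 in the others. A total of 66 groups of values (named members by generation and group) were examined in this way, and chance would flag about 1 in 20 of them, or 3.3.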

How the results depend on the processing

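The F2 class medians relative to all genes kept their direction under every alternative run, at 0.54 to 1.00 (motile) and 0.14 to 0.20 (general). The F1 motile median crossed 0 without Veh SGM15 (0.04), sGC SGM4 (0.03) or sGC SGM8 (0.14), against -0.04, and the F3 general median, near 0, crossed it without any of 4 animals (lowest -0.01). The F1 motile median itself, 0.03, was -0.03, -0.03 and -0.06 under the 3 rescalings, and also negative without Veh SGM19 or without sGC SGM12, SGM16 or SGM20. The F1 general median itself, -0.02, was positive without Veh SGM7 (0.07) or without sGC SGM8 (0.02) or SGM20 (0.004). The F3 motile median itself, 0.02, was negative without Veh SGM14 (-0.002) or sGC SGM10 (-0.003). The count of members past the adjusted threshold, 0 in each generation, changed in F1 and F2. In F1 it was 4 with median-of-ratios size factors, 4 with scaling to sample totals and 4 with quantile normalization: CFAP20 (log2 fold change -0.24, -0.23 and -0.26), DNAI1 (-0.25, -0.24 and -0.25), IFT27 (-0.44, -0.44 and -0.46) and DNAH11. The count over all F1 genes went from 78 to 2058, 1943 and 2084 under these scalings, which move the F1 median of all genes from 0.07 to about 0. Leaving out each animal in turn gave 0 to 1 in F1 (474 genes overall without Veh SGM7) and 0 to 4 in F2 (86 genes overall without Veh SGM22, 114 without Veh SGM28). In F2, 42 genes were called over all with quantile normalization, 17 with a mean of at least 50 and 23 without SGM30, against 0, and in F3 1 to 15 against 6. For the F1 minus F2 difference, 13 members were called with size factors (1635 of all 11429 genes, against 873) and 0 to 16 without 1 animal (16 without F2 Veh SGM22, with 1034 genes, and 3 without F1 sGC SGM12, with 1036). For F1 minus F3 it was 6 with size factors (2013 genes, against 358). For F2 minus F3 it was 1 with weights per generation, CFAP74 (1.15, adjusted p = 0.0489; 60 genes, against 1), an alternative chosen after seeing the data. The causes were not tested. In F2, 3 members with log2 fold changes near 0 changed sign with size factors, sample totals and quantile normalization: CFAP36 (0.0546, 0.0644 and 0.0716), DNAI1 (0.0435, 0.0533 and 0.0632) and SPAG9 (0.0408, 0.0506 and 0.0579). Leaving out each animal gave -0.0608 to 0.037 for CFAP36, -0.0918 to 0.0155 for DNAI1 and -0.0587 to 0.00314 for SPAG9. The other members tested this way kept their sign. The column names number the animals of both groups alike, but the labels tie those numbers to no litter or batch, and the deviations of same-numbered animals correlated at -0.54 to 0.31. With that number as a replicate block, added after seeing the data, 0 members were called in each generation, and 146, 6 and 0 genes overall in F1, F2 and F3.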

Other observations

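Among the 11429 genes tested in all 3 tables, 15 of 46 motile genes (32.6%) had a higher mean in sGC in every generation, where 6.13% of all genes did: CFAP43, CFAP44, CFAP46, CFAP57, CFAP58, CFAP61, CFAP97, DNAH1, DNAH3, DNAH5, DNAH9, DNAH10, FOXJ1, SPAG1 and SPAG17. Of 20 general genes, 5 did: BBS7, BBS9, BBS12, IFT74 and IFT140. Lower in every generation were SPAG7 and IFT46, where 11% of all genes were. The motile count is about what the separate counts of higher genes in F1, F2 and F3 give if the generations are unrelated. It is not read as agreement between them, which was not tested. None of these genes passed the test in any generation, and they were listed after their values were seen.

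The accompanying lists that were higher in F2 sGC animals had medians nearer to 0 in the other generations. In F1 the median log2 fold change was -0.01 for dynein assembly and docking (3 of 9 genes higher), -0.04 for the nexin-dynein regulatory complex and ruler (4 of 8), -0.09 for other axonemal genes (4 of 15) and -0.16 for regulators of multiciliated cells (2 of 6). In each of these F1 lists the lowest animal score was in sGC, yet the median animal score was higher in sGC than in Veh. For dynein assembly and docking the lowest score was -0.94 in sGC and -0.29 in Veh, and the medians were 0.12 and -0.04. Among the regulators, SGM8 had the lowest F1 counts of MYB (76) and TP73 (54). Signalling genes of the primary cilium were higher in 11 of 13 cases in F1, with a median of 0.18. In F3 the medians were 0.02 for dynein assembly and docking (6 of 9), 0.00 for the nexin-dynein regulatory complex and ruler (4 of 8), 0.07 for other axonemal genes (13 of 15) and 0.03 for regulators (4 of 6).

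In F3, SGM17 (Veh) was the lowest of the 12 animals for 17 of 47 motile genes (36.2%), against 11.3% of all genes, and SGM10 (sGC) was the highest for 19 (40.4%), against 13.5% of all genes.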
